A study of Mus musculus with 4 samples.

Results

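The cytosolic ribosomal protein genes were taken from the table as all genes whose symbol starts with Rpl or Rps and a digit, with Rplp0, Rplp1, Rplp2 and Rpsa, leaving out kinases of the Rps6k family, Rps19bp and Rpl7l symbols and pseudogenes. This gave 35 of 12700 genes, 21 of the large subunit and 14 of the small subunit. The large-subunit genes were Rpl4, Rpl7, Rpl8, Rpl9, Rpl13a, Rpl14, Rpl15, Rpl22, Rpl23, Rpl27a, Rpl28, Rpl29, Rpl32, Rpl34, Rpl35, Rpl36al, Rpl37a, Rpl39, Rpl41, Rplp0 and Rplp1. The small-subunit genes included Rps3, Rps3a1, Rps4x, Rps9, Rps10, Rps14, Rps15, Rps15a, Rps20, Rps21, Rps27l and Rps28. By this rule 87 protein-coding symbols of RefSeq would qualify. The others, Rplp2 and Rpsa among them, were not among the symbols of the table, so the 35 genes are a part of the family. Rps19-ps3, a pseudogene by its symbol, was left out; its reads ranged from 564 in CxWT to 1044 in CxH.

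RNA was sequenced from brains of C57BL/6 mice aged 9 months, a model of Hunter syndrome in which the lysosomal enzyme gene Ids is disrupted (Ids-ko), and from their wild type (wt) littermates. CxH is cerebral cortex of Ids-ko mice, CxWT is cerebral cortex of wt mice, MH is midbrain, diencephalon and hippocampus (M) of Ids-ko mice, and MWT is M of wt mice. The methods also place the striatum in M, and state that each brain was divided into both areas. By the labels, then, CxH and MH share animals, as do CxWT and MWT. Each of the 4 conditions is 1 library of polyA RNA pooled from several mice, so a difference between libraries has no replicate check and no p-value is given.

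Between 16380080 (MWT) and 23475080 (CxH) reads were counted on genes. Levels are in RPM, the reads of a gene per 1000000 aligned reads of the library. Ratios are log2 ratios of RPM, and ± marks their counting standard error. A gene was called higher or lower when its log2 ratio reached 0.7 in that direction and a likelihood ratio test on the reads of both libraries fell under 0.05. Values given 4 at a time follow the order CxH, CxWT, MH, MWT. These tests compare libraries and not conditions.

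The labels were checked before any comparison. Ids, on chromosome X from 67596244 to 67618260 (mm9), stood at 135 RPM in CxH and 354 RPM in CxWT, but at 368 RPM in the library labelled MH and 155 RPM in the library labelled MWT. In M, Ids reads therefore go against the labels, with a log2 ratio of 1.24 ± 0.025. The area labels were also checked. The 5 markers of cortical projection neurons summed to 191, 38.6, 177 and 29.1 RPM. The 8 markers of midbrain and diencephalon neurons summed to 10.6, 217, 10.1 and 172 RPM, with En1, Gata3 and Slc6a4 at 3 reads or fewer in CxH, and En1 and Slc6a4 in MH. CxH and MH were alike in these area markers, as were CxWT and MWT, although the labels pair the libraries differently. Label names are kept throughout, no library was reassigned, and values are given for each of the 6 pairs. In bulk tissue, a change in the number of cells of a type and a change of RNA per cell cannot be told apart.

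Ribosomal proteins and ribosomal RNA together form the large and the small subunit of the cytosolic ribosome, the machine that translates messenger RNA. Their genes are transcribed in nearly every cell, and their messengers begin with a run of pyrimidines, the TOP motif, through which mTORC1 signalling controls their translation as a group. Many of these genes have intronless copies in mammalian genomes, the processed pseudogenes, whose sequences are close to the spliced messenger. Neurons carry ribosomes in the cell body and dendrites, and microglia and other glia contribute their own.

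The sequences at the transcription starts are shown because the pyrimidine run there is what ties these genes together as a translationally controlled group. RefSeq start regions (GRCm38.p6) were matched for 26 of the 35 genes, and each was placed on mm9 by an exact match of its full length. Each line gives the 15 bases before and the 15 bases from the annotated start on the gene's strand, and capitals mark a C followed by at least 4 pyrimidines (C or T) that begins within 5 bases of the start. The first 4 genes hold such a run and the last 4 do not.
Rps9: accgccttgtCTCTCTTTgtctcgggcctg
Rpl15: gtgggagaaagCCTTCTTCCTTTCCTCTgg
Rps27l: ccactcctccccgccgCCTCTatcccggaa
Rps21: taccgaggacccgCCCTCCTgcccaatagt
Rplp0: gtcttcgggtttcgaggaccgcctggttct
Rpl41: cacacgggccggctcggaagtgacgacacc
Rps3a1: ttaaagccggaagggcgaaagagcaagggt
Rps4x: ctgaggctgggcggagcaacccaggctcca

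These windows lie at chr7:3655628-3655657 (Rps9, plus strand), chr14:19103486-19103515 (Rpl15, minus), chr9:66793878-66793907 (Rps27l, plus), chr2:179992069-179992098 (Rps21, plus), chr5:116009461-116009490 (Rplp0, plus), chr10:127986210-127986239 (Rpl41, minus), chr3:85946576-85946605 (Rps3a1, minus) and chrX:99384716-99384745 (Rps4x, minus). Searched on the gene's strand alone, the run was present at 13 of the 26 starts (50%), against 18.5% of 27025 genes with a start region of the same length and 20.3% of the 10086 of them in the table. A match is a description of the letters at an annotated start, and an annotated start can lie some bases from the one used in brain. The median log2 ratio of the genes with a run was 0.16, against 0.27 for those without it, in CxH vs. CxWT, and -0.58 against -0.41 in MH vs. MWT. In CxH vs. MH it was 0.37 against 0.28, and for CxWT vs. MWT it was -0.39 against -0.24, with 13 genes on each side.

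Summed over the 35 genes, the ribosomal protein genes had 2482, 2021, 1907 and 2424 RPM. As a share of the reads on genes this was 0.407% (95% exact Clopper-Pearson interval 0.405 to 0.410) in CxH, 0.335% (0.333 to 0.338) in CxWT, 0.323% (0.321 to 0.325) in MH and 0.428% (0.425 to 0.432) in MWT. The shares were thus higher in CxH and MWT than in CxWT and MH, and none of the intervals, which cover counting error only, overlap. No member was at 0 in any library. The least read was Rpl37a or Rps28, with 43 to 65 reads and 46 to 103 reads, and the most read was Rplp1 in CxH with 9727 reads. The median member had between 1548 (CxWT) and 2487 (CxH) reads, against 567 to 738 for the median gene of the table.

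Levels between genes were compared per kilobase of coding sequence, for the 34 genes with a coding transcript in GENCODE vM1. On this scale, taking for each gene the median of its 4 libraries in RPM per kilobase, Rplp1 was highest at 419. This acidic protein of the ribosomal stalk recruits translation factors. Rpl39, a short protein at the polypeptide exit tunnel, followed at 322, then Rps15a at 299, Rpl32 at 243 and Rpl9 at 230. Rpl37a was lowest at 5.11, and Rps28 at 9.37, Rps27l at 10.4 and Rpl34 at 11.9 lay next to it. Neighbours further up this order, such as Rps14 at 219 and Rps10 at 215, or Rpl35 at 209 and Rpl13a at 208, lay closer together than the same gene did between libraries.

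**Figure D1:**
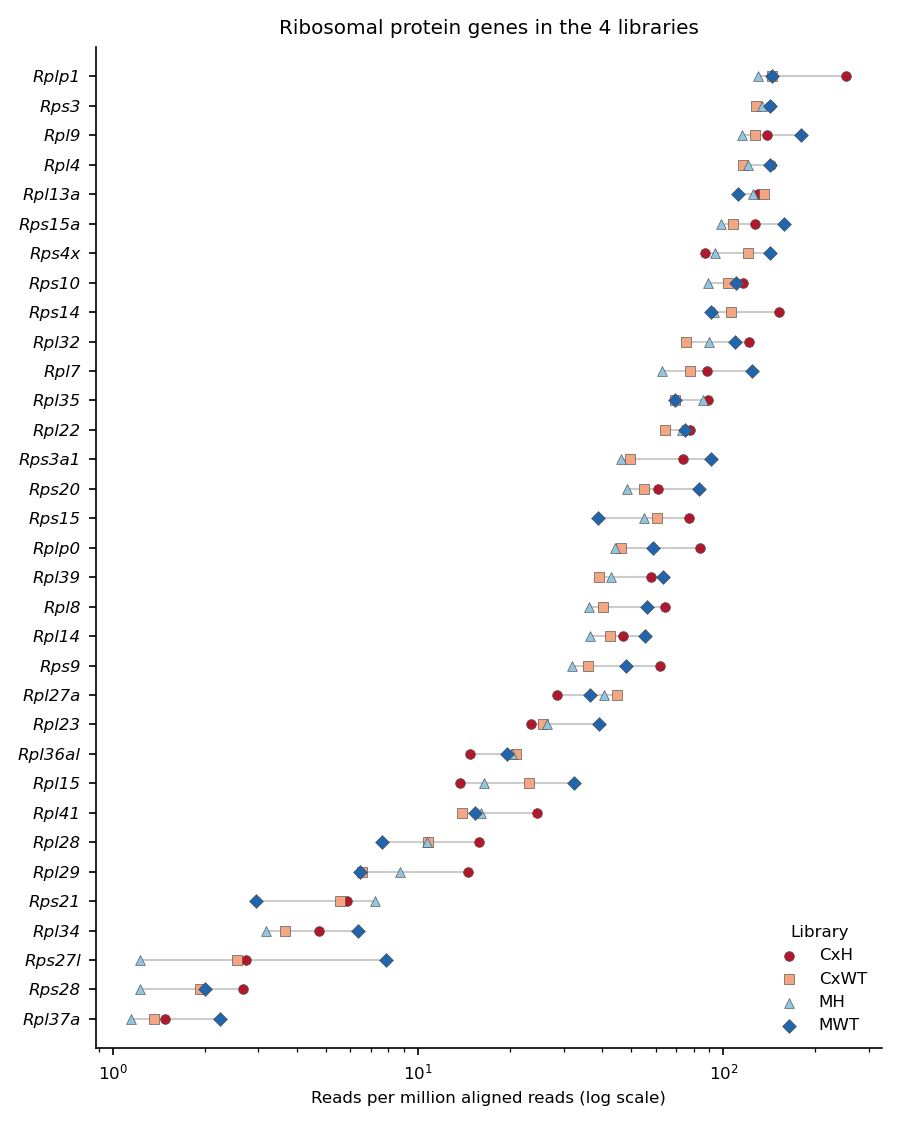
Levels in RPM (log axis) of 33 of the 35 ribosomal protein genes in the libraries CxH, CxWT, MH and MWT, ordered by their median; each symbol is 1 library and the grey line joins the lowest and the highest. Between the lowest and the highest library Rps27l spans 6.40-fold and the others 1.11-fold to 2.46-fold.

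The range between the 4 libraries differed from gene to gene. The highest library was above the lowest by 1.11-fold for Rps3, a protein at the messenger entry channel, and by 1.21-fold for Rpl22 and 1.22-fold for Rpl13a. The median of this ratio was 1.66 for the 31 members with at least 100 reads in every library, against 1.498 for the 11010 genes of the table that pass the same filter. The highest ratios were those of Rps27l at 6.40, Rps21 at 2.46, Rpl15 at 2.35 and Rpl29 at 2.25.

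The order of the libraries was shared by many members. CxH was the highest library for 15 genes and MWT for 16, beside 27.7% and 32.1% of all genes, and MH was the lowest for 17, beside 23.4%. For 22 of the 35 genes (62.9%) the 2 highest libraries were CxH and MWT, which held for 9.02% of the 12700 genes of the table. They include Rplp0, Rplp1, Rpl7, Rpl8, Rpl32, Rps3a1 and Rps9. For 2 genes, Rpl27a and Rpl36al, CxWT and MH were the highest, as for 9.91% of all genes. The remaining genes fell into the other arrangements, namely 4 with CxH and CxWT highest (Rpl13a, Rpl28, Rps14 and Rps15), 4 with CxH and MH (Rpl29, Rpl35, Rpl41 and Rps21), 2 with CxWT and MWT (Rpl15 and Rps4x) and 1 with MH and MWT (Rpl23). In the whole table the arrangement seen most often was CxWT and MWT highest, at 36.9%.

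By the labels, CxH vs. CxWT sets the Ids-ko library against the wt library of the cortex, although their area markers differed. Of the 35 genes, 29 had a ratio above 0 and 6 below, and the median log2 ratio was 0.27, where the median of all genes was -0.09. Called higher in CxH were 5 of the 35, Rpl29, Rplp0, Rpl41, Rplp1 and Rps9, beside 9.46% of all genes, and 1, Rpl15, was called lower, beside 11.5% of all genes. With Rpl15 on the other side, most members that lay above 0 did so by less than the threshold.

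Rpl29, a large-subunit protein whose loss in mice slows growth of the skeleton, lies on chromosome 9 from 106331785 to 106333899. It had 560, 220, 326 and 187 reads, or 14.5, 6.54, 8.73 and 6.46 RPM. CxH stood above the other libraries, and its log2 ratio over CxWT was 1.15 ± 0.11.

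Rplp0, the scaffold of the ribosomal stalk (chromosome 5, 116009476 to 116013736), had 3239, 1548, 1650 and 1699 reads, or 84.1, 46.0, 44.2 and 58.7 RPM, and a log2 ratio of 0.87 ± 0.045. Its partner Rplp1 (chromosome 9, 61761091 to 61762345) had 9727, 4852, 4864 and 4188 reads, or 253, 144, 130.2 and 145 RPM, and a ratio of 0.81 ± 0.025. Both stalk genes were highest in CxH, and Rplp1 differed little among the other libraries. After the correction for GC content and length described further on, Rplp1 was at 0.56 and no longer called. Rps3a1 at 0.71 was called in addition to Rpl29, Rplp0 and Rps9, making 4 of 34, beside 9.11% of all genes. Rpl41 has no corrected value.

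Rps9, a small-subunit protein on chromosome 7 from 3655595 to 3658503, had 2394, 1210, 1189 and 1390 reads, or 62.2, 35.99, 31.8 and 48.02 RPM, and a log2 ratio of 0.79 ± 0.051. Rpl41, whose product is among the shortest proteins known, had 946, 467, 603 and 446 reads and a ratio of 0.82 ± 0.082.

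Rpl15, a core protein of the large subunit on chromosome 14 from 19100337 to 19103905, went the other way. It had 529, 776, 616 and 935 reads, or 13.7, 23.1, 16.5 and 32.3 RPM, and a log2 ratio of -0.75 ± 0.081. Its exon bases are shared with Nkiras1 on the opposite strand, and the sources used here do not say whether counting used the strand. Just below the threshold lay Rpl32 at 0.69 ± 0.036 and Rpl8 at 0.68 ± 0.049 on the higher side and Rpl27a at -0.65 ± 0.057 on the lower side. With TMM factors, which shift the median of all genes to 0.00, 7 members were higher and 0 lower, Rpl32 and Rpl8 having been added and Rpl15 lost, beside 11.4% of all genes higher and 8.94% lower. The GC and length correction also ended the call of Rpl15, at -0.39.

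By the labels, MH vs. MWT makes the same comparison in M, where Ids reads go against them and the area markers differed too. Here 25 of the 35 genes had a lower RPM in the library labelled MH than in the library labelled MWT and 10 a higher RPM. The median log2 ratio was -0.41, where the median of all genes was -0.06. Called lower in MH were 9 genes, beside 12.7% of all genes, and 1 gene, Rps21, was called higher, beside 12.3%. They included Rps27l, Rpl34, Rpl7, Rps3a1, Rpl15, Rpl37a, Rps20 and Rps28.

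Rps27l, on chromosome 9 from 66793893 to 66797323, encodes a close relative of the small-subunit protein Rps27 and is a known p53 target. It had 105, 86, 46 and 228 reads, or 2.73, 2.56, 1.23 and 7.88 RPM. MWT stood above and MH below CxH and CxWT, and the log2 ratio in M was -2.68 ± 0.23. No row of the table carried the symbol of its parent gene Rps27. Of the 50-base coding windows of Rps27l 35.0% had no close match elsewhere in the genome.

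Rpl7, a large-subunit RNA-binding protein on chromosome 1 from 16091376 to 16094743, had 3394, 2619, 2346 and 3598 reads, or 88.1, 77.9, 62.8 and 124 RPM, with -0.99 ± 0.038 in M. Rps3a1 (chromosome 3, 85941862 to 85946624) had 2841, 1658, 1727 and 2638 reads, or 73.8, 49.3, 46.2 and 91.1 RPM, with -0.98 ± 0.045. In both genes MWT was highest and MH lowest.

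Rps20 (chromosome 4, 3758481 to 3762812) had 2354, 1842, 1803 and 2411 reads and a ratio of -0.79 ± 0.045. Rpl34 (chromosome 3, 130429749 to 130433316) had 183, 123, 119 and 184 reads and a ratio of -0.997 ± 0.17. Rpl15 had -0.97 ± 0.075 in M and was called lower there as in Cx, each time in the library labelled Ids-ko.

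Rpl37a and Rps28 were called on few reads. Rpl37a had 57, 46, 43 and 65 reads and a ratio of -0.96 ± 0.28, and Rps28 had 103, 65, 46 and 58 reads and -0.70 ± 0.28. Rps28 was no longer called when 0.5 reads were added to every count, and its exon bases are shared with Kank3 on the opposite strand.

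Rps21, a small-subunit protein on chromosome 2 from 179992082 to 179993150, had 225, 186, 270 and 85 reads, or 5.84, 5.53, 7.23 and 2.94 RPM. Its log2 ratio in M was 1.30 ± 0.18, and MWT lay below the other 3 libraries. With its 85 reads there it fails a minimum of 100 reads in both libraries. Next in this direction, and not called, were Rps15 at 0.50 ± 0.053, Rpl28 at 0.49 ± 0.12, Rpl29 at 0.43 ± 0.13 and Rpl35 at 0.31 ± 0.041. Rps15a, at -0.68 ± 0.032, lay just short of the threshold on the lower side. The GC and length correction ended calls in M, among them those of Rps3a1 at -0.49, Rps28 at -0.47, Rpl15 at -0.46, Rpl7 at -0.44, Rps20 at -0.38 and Rpl37a at -0.32.

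**Figure D2:**
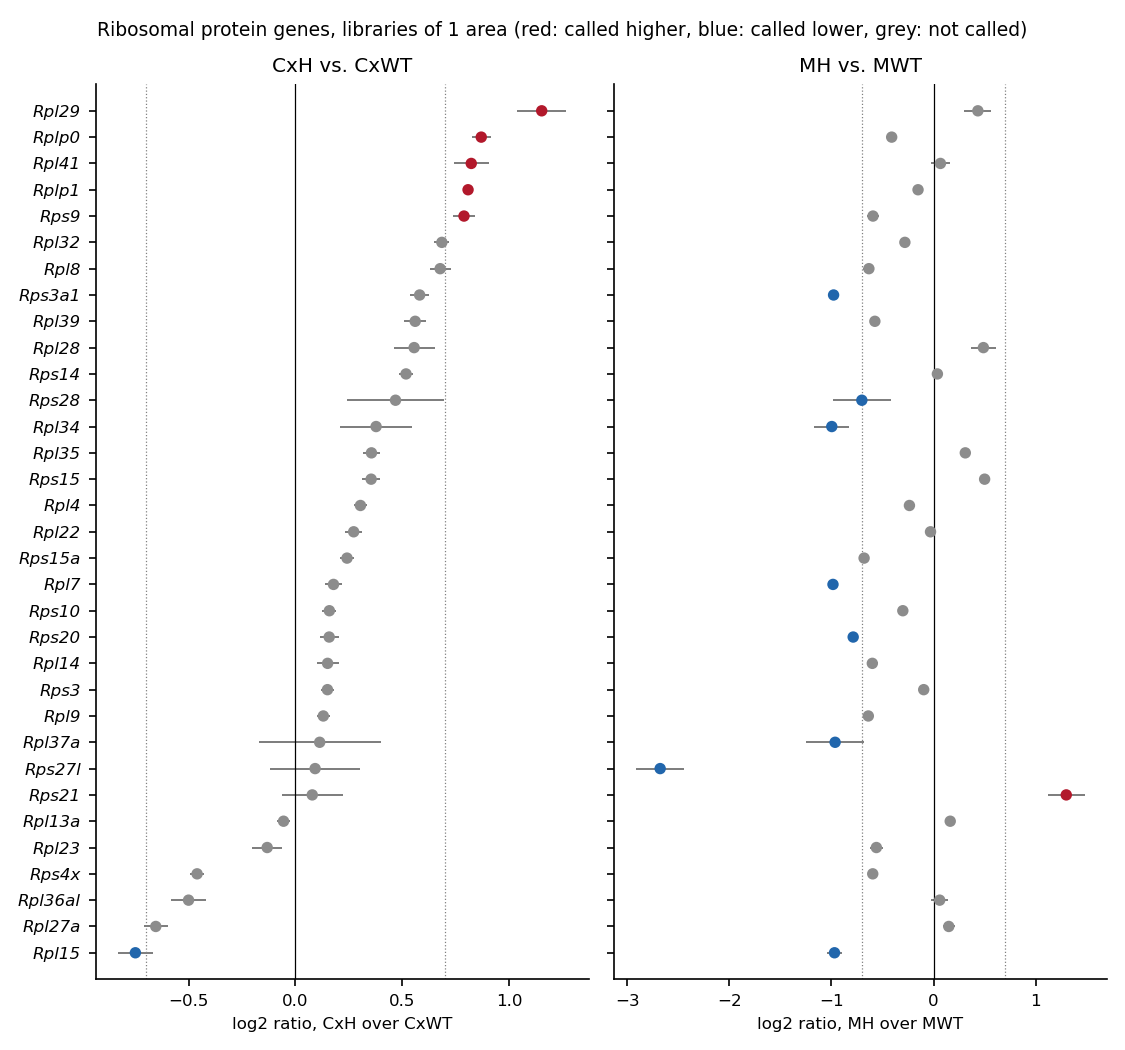
Log2 ratio of 33 of the 35 ribosomal protein genes in CxH over CxWT (left) and in MH over MWT (right), with the counting standard error as a bar, ordered by the left panel; dotted lines mark 0.7 in either direction. Of the genes drawn, 27 lie above 0 in the left panel and 23 below 0 in the right panel.

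The direction therefore differed between the areas as labelled. For 22 of the 35 genes (62.9%) the ratio was above 0 in Cx and below 0 in M, a combination found in 12.1% of all genes. Of the rest, 7 were above 0 in both, 3 below 0 in both, and 3 below 0 in Cx and above 0 in M. After the GC and length correction the combination held for 17 of 34 genes (50%), beside 16.3% of all genes. In the table as a whole 30.4% of genes were above 0 in both and 42.2% below 0 in both. These comparisons share no library, though by the labels both areas come from the same animals. Across the 35 genes the ratios of these comparisons had Spearman's rho of 0.12 and Pearson's r of 0.12. Over the 11010 genes that reach 100 reads in each library the coefficients were 0.64 and 0.73. Genes are not independent replicates, and these coefficients describe the libraries.

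The summed reads, taken from the same libraries, gave the same picture. Their log2 ratio was 0.30 ± 0.0072 in CxH vs. CxWT, or 1.23-fold, and -0.35 ± 0.0077 in MH vs. MWT, or 0.787-fold. By subunit, the median ratio was 0.30 in Cx for the large and 0.22 for the small subunit, and in M -0.28 and -0.59. In Cx 16 of 21 and 13 of 14 genes were above 0, and in M 14 of 21 and 11 of 14 were below 0. After the GC and length correction Cx had medians of 0.31 and 0.26, while M had -0.02 and -0.33, where 11 of 20 large-subunit and 10 of 14 small-subunit genes were below 0.

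CxH vs. MH and CxWT vs. MWT set the areas against each other within a genotype by the labels, in pairs whose area markers were alike. Ids differed by 2.72-fold in CxH vs. MH, with CxH the lower, and by 2.28-fold in CxWT vs. MWT, with MWT the lower. In CxH vs. MH, 29 of the 35 genes were above 0, with a median log2 ratio of 0.38 beside 0.01 for all genes. Called higher in CxH were 8, beside 2.43% of all genes, and called lower were 0, beside 1.06%. They included Rps27l at 1.15 ± 0.26, Rps28 at 1.12 ± 0.26, Rps9 at 0.97 ± 0.051, Rplp1 at 0.96 ± 0.025, Rplp0 at 0.93 ± 0.044, Rpl8 at 0.83 ± 0.049 and Rpl29 at 0.74 ± 0.10. The share called, 8 of 35, was above the background here. Below 0 lay Rpl27a at -0.51 ± 0.057, Rpl36al at -0.46 ± 0.080, Rps21 at -0.31 ± 0.13, Rpl15 at -0.26 ± 0.086, Rpl23 at -0.18 ± 0.066 and Rps4x at -0.11 ± 0.035, none of them called. The GC and length correction ended calls here too, among them those of Rplp1 at 0.57, Rpl8 at 0.51 and Rpl29 at 0.42.

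Rpl8, on chromosome 15 from 76734501 to 76736748, had 2487, 1358, 1357 and 1631 reads, or 64.6, 40.4, 36.3 and 56.3 RPM. Its level in CxH and MWT was above that in CxWT and MH. It is also among the genes least affected by copies, since 91.2% of its 50-base coding windows had no close match elsewhere.

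In CxWT vs. MWT the ratios mostly lay below 0. Here 26 of the 35 genes were lower in CxWT than in the library labelled MWT and 9 were higher, with a median log2 ratio of -0.30 beside 0.04 for all genes. Called lower were 4, Rps27l at -1.62 ± 0.18, Rps3a1 at -0.89 ± 0.045, Rpl34 at -0.80 ± 0.17 and Rpl37a at -0.71 ± 0.28, beside 2.11% of all genes. Called higher was Rps21 at 0.91 ± 0.19, beside 5.43% of all genes. Just short of the threshold were Rpl39 at -0.70 ± 0.052 and Rpl7 at -0.67 ± 0.037. The next higher ratios, none called, were Rps15 at 0.64 ± 0.054, Rpl28 at 0.50 ± 0.12, Rpl27a at 0.29 ± 0.058 and Rpl13a at 0.28 ± 0.033. After the GC and length correction Rpl34 was at -0.69, Rps3a1 at -0.61 and Rpl37a at -0.32, none of them called.

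Set side by side, 23 of the 35 genes (65.7%) were above 0 in CxH vs. MH and below 0 in CxWT vs. MWT, beside 20.4% of all genes. After the GC and length correction this held for 22 of 34 genes (64.7%), beside 31.1% of all genes. Their summed reads had log2 ratios of 0.38 ± 0.0071 and -0.26 ± 0.0078 in these pairs, or 1.30-fold and 0.834-fold. Rps27l was called in both, in opposite directions.

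**Figure D3:**
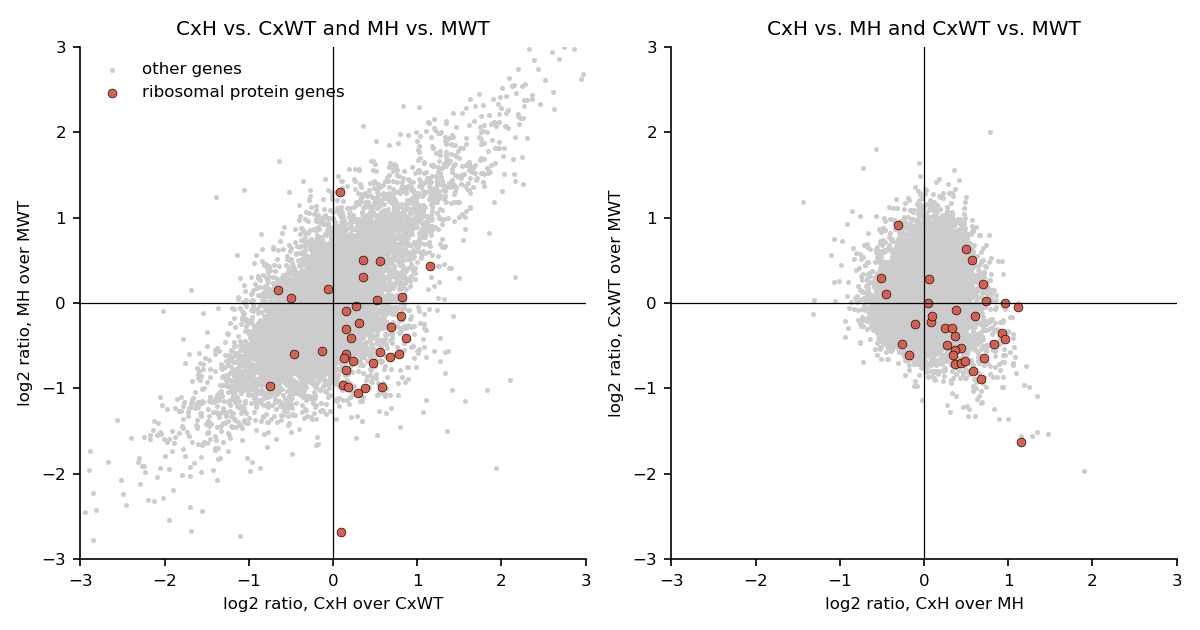
Log2 ratios of other genes, each with 100 or more reads per library (grey), and of the 35 ribosomal protein genes (red) in pairs of comparisons that share no library; values beyond 3 are not drawn. In the left panel 22 of the 35 genes, and in the right panel 23, lie to the right of 0 and below 0.

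The remaining 2 pairs differ in both labels. In CxH vs. MWT, where Ids differed by 1.15-fold, the median was -0.01 beside -0.04 for all genes, with 17 genes above 0 and 18 below. Called higher were 6, Rpl29, Rpl28, Rps15, Rps21, Rplp1 and Rps14, beside 15.6% of all genes, and called lower were 4, Rps27l, Rpl15, Rpl23 and Rps4x, beside 15.1%. After the GC and length correction Rpl29 and Rps21 were called higher and Rps27l lower. The range was wide, from -1.53 ± 0.17 for Rps27l and -1.23 ± 0.078 for Rpl15 to 1.17 ± 0.12 for Rpl29 and 1.06 ± 0.11 for Rpl28. Close to the threshold lay Rpl23 at -0.74 ± 0.064, Rps14 at 0.73 ± 0.034, Rps4x at -0.70 ± 0.034 and Rpl41, not called, at 0.67 ± 0.083.

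In MH vs. CxWT, where Ids differed by 1.04-fold, the median was -0.14 beside -0.11 for all genes. Called higher were 0, beside 6.41% of all genes, and called lower was Rps27l alone at -1.06 ± 0.26, beside 8.89%. The other members lay between -0.65 ± 0.28 for Rps28 and 0.41 ± 0.13 for Rpl29. Rpl15 at -0.49 ± 0.078, Rps4x at -0.35 ± 0.033, Rpl7 at -0.31 ± 0.041 and Rps10 at -0.22 ± 0.035 were at the lower end, and Rps21 at 0.39 ± 0.14, Rpl35 at 0.31 ± 0.039, Rpl32 at 0.25 ± 0.038 and Rpl41 at 0.22 ± 0.089 at the upper end. The summed reads had a ratio of -0.08 ± 0.0077 here and 0.03 ± 0.0072 in CxH vs. MWT. Over all 6 pairs 21 of the 35 genes were called at least once (60%) and 14 never, and 41.8% of all genes were called at least once.

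Members with a copy-type symbol behaved unlike each other. Rpl36al, an intronless relative of Rpl36a on chromosome 12 from 70283718 to 70285070, had 571, 705, 760 and 565 reads, or 14.8, 21.0, 20.3 and 19.5 RPM. It was lowest in CxH and nearly level elsewhere, with ratios of -0.50 ± 0.081 in CxH vs. CxWT and 0.06 ± 0.080 in MH vs. MWT. No row of the table carried the symbol Rpl36a. Rps27l, given above, was highest in MWT.

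Transcript length and GC content moved with the ratios in the whole table. Among 10784 other genes that reach 100 reads in each library, Spearman's rho between the GC content of the longest protein-coding transcript and the log2 ratio was 0.46 for CxH vs. CxWT, 0.49 for MH vs. MWT, 0.58 for CxH vs. MH, 0.63 for CxWT vs. MWT, 0.69 for CxH vs. MWT but 0.16 for MH vs. CxWT. With length it was -0.10, 0.13, -0.28, 0.11, -0.01 and 0.09 in the same order of pairs. The ribosomal protein transcripts are short, with a median of 940 nt (from 394 for Rps21 to 5130 for Rps15a) against 3100 nt for all genes, and their median GC content of 50.5% was close to the 50.7% of all genes.

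Within the ribosomal protein genes the ratios moved with GC content too. Over the 34 with a transcript, rho with GC content was 0.52, 0.56, 0.32, 0.62, 0.81 and 0.23 in that order of pairs. In CxH vs. MWT, where it was highest, the 3 members of the lowest GC content were Rps20 (41.3%), Rps27l (43.1%) and Rpl15 (43.2%), with ratios of -0.45, -1.53 and -1.23. The 2 of the highest were Rps15 (62.4%) and Rpl28 (60.4%), with ratios of 0.99 and 1.06. With the GC content of the coding sequence rho was 0.39, 0.47, 0.31, 0.60, 0.725 and 0.03. On that measure Rps20 was at 48.6%, Rps27l at 45.5% and Rpl15 at 53.3%, beside a members' median of 53.3%. These points share their libraries, so the coefficients describe these libraries alone.

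The ratios were also set beside those of other genes of like GC content. At a GC content over 44% and up to 48%, the 5 members had a median of 0.13 in CxH vs. CxWT where 2135 other genes had -0.24, and -0.68 in MH vs. MWT where the others had -0.24. In the range over 52% and up to 56%, the 7 members had 0.38 and -0.41 where 2272 others had 0.07 and 0.10. Over 56% the 9 members had 0.47 and 0.16 where 2235 others had 0.19 and 0.40, so the members' median in MH vs. MWT was above 0 there. Among transcripts of up to 1000 nt, the 20 members had medians of 0.37 for CxH vs. CxWT, -0.49 for MH vs. MWT, 0.53 for CxH vs. MH but -0.27 for CxWT vs. MWT, where 401 other genes had 0.09, -0.28, 0.26 and -0.12.

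When the fitted trend in GC content and length was subtracted, the median of the 34 members was 0.27 for CxH vs. CxWT, -0.11 for MH vs. MWT, 0.22 for CxH vs. MH but -0.18 for CxWT vs. MWT. The direction of these medians did not turn, while the median in MH vs. MWT shrank from -0.41. The members called lower in MH vs. MWT fell from 9 of 35 to 3 of 34 (Rps27l, Rpl34 and Rpl8), near the 9.04% of all genes called lower after the correction. In CxH vs. MH those called higher fell from 8 to 4 (Rps27l, Rps28, Rps9 and Rplp0), beside 1.38% of all genes, and in CxWT vs. MWT those called lower fell from 4 to 1 (Rps27l), beside 1.64%. In the same fit Rps27l had ratios of -1.84 in MH vs. MWT and -1.10 in CxWT vs. MWT, Rps21 had 1.80 and 1.21, and Rplp0 had 0.83 in CxH vs. CxWT and 0.77 in CxH vs. MH. Fewer calls were lost when the trend was fitted on the coding sequence. With its GC content and length, 6 of 34 were lower in MH vs. MWT, beside 9.87% of all genes, 6 higher in CxH vs. MH, beside 1.595%, and 4 lower in CxWT vs. MWT, beside 2.22%, and the medians in these pairs were -0.23, 0.32 and -0.30. In CxH vs. CxWT that correction gave 7 higher, beside 9.38%, and 1 lower, beside 8.445%, with a median of 0.41. The part of base composition in the ratios was otherwise not tested.

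**Figure D4:**
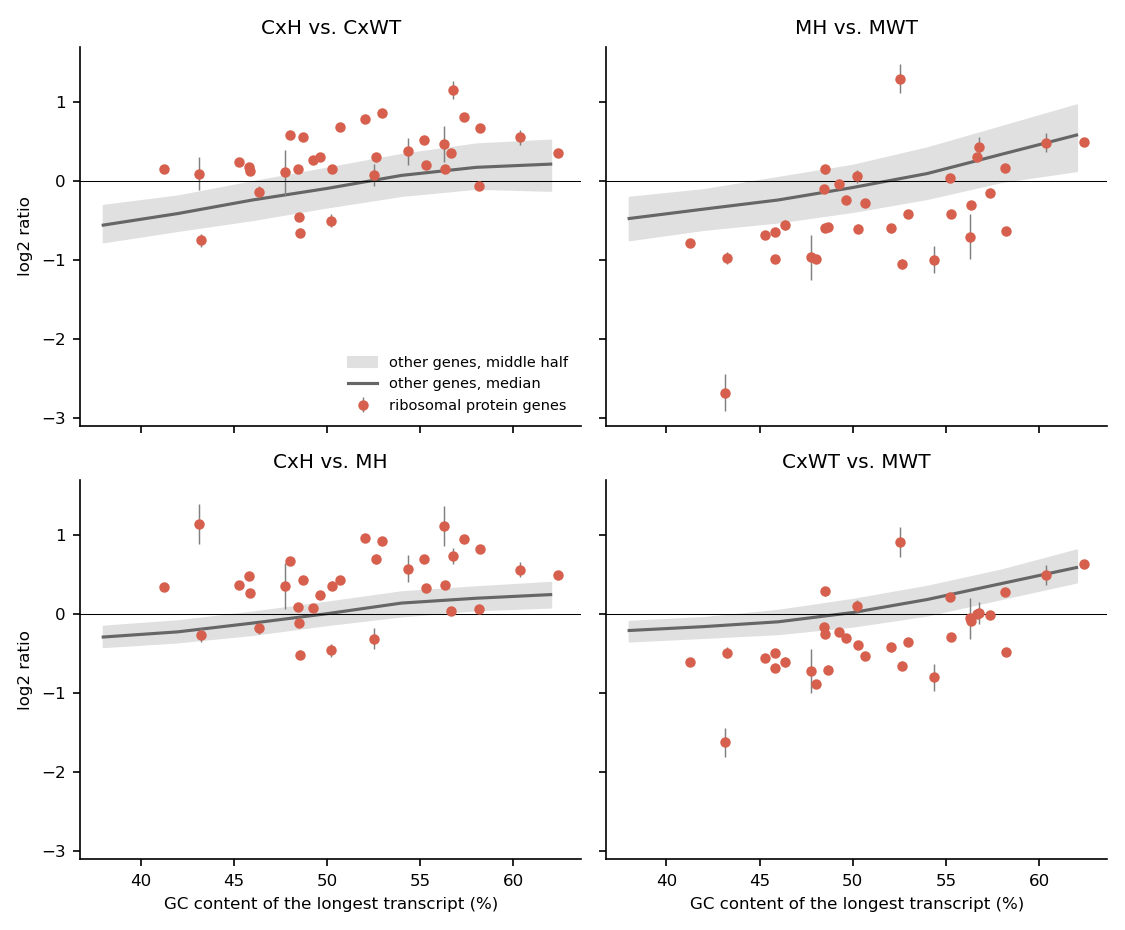
Log2 ratio against the GC content of the longest protein-coding transcript for 34 ribosomal protein genes (red, with counting standard errors) in 4 pairs of libraries; the line is the median and the grey band the interquartile range of other genes that reach 100 reads in each library, in bins of GC content. At a GC content over 52% and up to 56% the members' median is 0.38 where the others have 0.07 in CxH vs. CxWT, and -0.41 where they have 0.10 in MH vs. MWT.

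Copies elsewhere in the genome limit which reads could be assigned. Each coding sequence was cut into windows of 50 bases, and a window was counted as copied when it matched the genome outside its own gene with at most 2 mismatches, the mismatch limit of the alignment. For 31 of 34 genes fewer than 50% of the windows were free of copies, and the median was 0%. Rpl8 at 91.2% and Rps3 at 56.8% were among the exceptions. Rpl29 had 17 near full-length copies, Rpl27a 11, Rpl15 9 and Rps28 8, where a copy spans at least 80% of the coding sequence without a gap at 95% identity. The window length is an assumption, and windows across splice junctions count here like any other. Exon bases of Rpl13a are also shared with Flt3l and with small nucleolar RNAs on the same strand.

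Over the 34 genes, Spearman's rho of the share of free windows with the level per kilobase was 0.03. It was 0.03 with the ratio in CxH vs. CxWT and 0.09 with that in MH vs. MWT. The median share was 0%, so many genes tie there and these coefficients cannot tell whether copies matter. As counted, the 3 genes with mostly free windows lay above 0 in Cx and below 0 in M. Rpl8 had 0.68 ± 0.049 and -0.63 ± 0.053. Rps3 had 142.1, 128, 133 and 142.6 RPM and ratios of 0.15 ± 0.029 and -0.10 ± 0.030, and the GC and length correction turned the latter to 0.19.

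Other genes of translation were looked at as lists, and their called counts are to be read beside the shares of all genes called, which were 9.46% higher and 11.5% lower in CxH vs. CxWT, and 12.3% higher and 12.7% lower in MH vs. MWT. Medians given 4 at a time are in the order CxH vs. CxWT, then MH vs. MWT, then CxH vs. MH, and last CxWT vs. MWT. Rack1, a scaffold protein bound to the small subunit, had 14926, 9795, 10934 and 8666 reads and log2 ratios of 0.41 ± 0.019 in CxH vs. CxWT and -0.03 ± 0.021 in MH vs. MWT, and it was not called in any pair. After the GC and length correction the latter was 0.21. The 17 elongation factors and other genes of the TOP type, among them the host genes of small nucleolar RNAs Gas5, Snhg1 and Snhg8, had medians of 0.24, -0.31, 0.22 and -0.14. Of them 0 were called in CxH vs. CxWT and 4 were lower in MH vs. MWT. The elongation factor Eef1a1 was among the 4, with 58770, 44222, 42052 and 53815 reads and a ratio of -0.72 ± 0.0094 in MH vs. MWT. The other 3 were Snhg1 at -1.35 ± 0.16, Npm1, a nucleolar chaperone, at -1.05 ± 0.066, and the initiation factor subunit Eif3e at -0.72 ± 0.059.

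The 71 mitochondrial ribosomal proteins had medians of -0.03, -0.34, 0.22 and -0.13, with 2 called higher (Mrpl33 and Mrpl53) and 2 lower (Mrpl3 and Mrps10) in CxH vs. CxWT and 0 higher and 13 lower in MH vs. MWT. The 47 ribosome biogenesis factors had -0.19, -0.01, -0.17 and 0.03, with 3 called higher (Bop1, Nhp2 and Ubtf) and 3 lower (Mdn1, Nop58 and Utp18) in CxH vs. CxWT. In MH vs. MWT 3 were higher (Bop1, Nob1 and Rrp9) and 4 lower (Nop10, Npm1, Polr1e and Riok2). The 51 genes with Eif symbols are initiation factors together with the kinases of eIF2 and the binding proteins of eIF4E, which repress initiation, and had 0.02, -0.07, 0.08 and -0.0039. In CxH vs. CxWT 3 of them were called lower, Eif1a at -0.94, Eif5 at -0.70 and Eif5a2 at -1.14, and the 1 called higher was the repressor Eif4ebp1 at 1.25. In MH vs. MWT 10 were called lower, the kinase Eif2ak2 at -0.82 among them, and Eif2d at 0.71 was the 1 called higher. The 20 cytosolic aminoacyl-tRNA synthetases had -0.13, -0.15, -0.03 and 0.04, with Farsb called lower in CxH vs. CxWT at -0.82 and 0 called in the other 3 of these pairs. The 36 proteasome subunits had -0.10, -0.29, 0.10 and -0.12, with 1 called higher (Psmb8) and 3 lower (Psmc6, Psmd10 and Psmd12) in CxH vs. CxWT and 1 higher (Psmb10) and 2 lower (Psma6 and Psmd12) in MH vs. MWT. The 77 nuclear subunits of oxidative phosphorylation, whose transcripts have a median length of 861 nt, had 0.02, -0.32, 0.26 and -0.13, with 6 called higher and 0 lower in CxH vs. CxWT and 0 higher and 19 lower in MH vs. MWT.

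After the GC and length correction on the longest transcript the medians of the mitochondrial ribosomal proteins were 0.0042, -0.12, 0.12 and -0.02, those of the TOP genes 0.26, -0.19, 0.25 and -0.22, and those of the biogenesis factors -0.02, 0.11, -0.12 and 0.07. The genes with Eif symbols came to 0.07, -0.02, 0.11 and -0.04, and the synthetases to -0.05, -0.05, -0.08 and 0.01. The proteasome subunits came to -0.08, -0.03, 0.04 and 0.09, and oxidative phosphorylation to 0.02, -0.07, 0.09 and -0.06. The direction turned for the mitochondrial ribosomal proteins in CxH vs. CxWT, for the biogenesis factors in MH vs. MWT and for the proteasome subunits in CxWT vs. MWT, and in these lists and pairs for no other median.

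**Figure D5:**
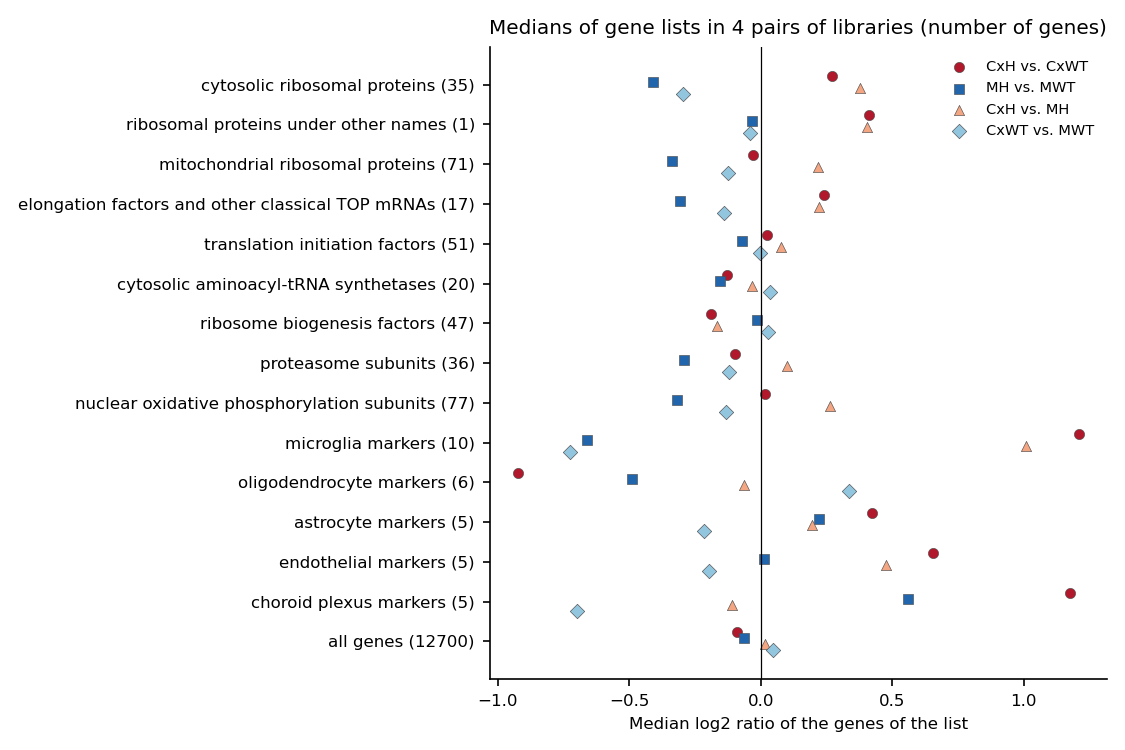
Median log2 ratio of the cytosolic ribosomal protein genes, of related gene lists, of glial and vascular marker lists and of all genes in 4 pairs of libraries, with the number of genes in parentheses; lists of neuron and red cell markers are not drawn. The cytosolic ribosomal protein genes have 0.27 in CxH vs. CxWT and -0.41 in MH vs. MWT, and the microglia markers lie further out with 1.21 and -0.66.

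Of the marker lists of other cell types, that of microglia was, like the summed ribosomal protein genes, higher in CxH and MWT than in CxWT and MH. The summed astrocyte and endothelial markers were too, but in MH vs. MWT 3 of 5 markers of each list lay above 0, with medians of 0.22 and 0.01. Among the astrocyte markers Gfap at -1.13 and Aqp4 at -1.30, and among the endothelial markers Ly6c1 at -0.98, were the called ones there. Of the microglia markers, Csf1r at 0.33 and Cx3cr1 at 0.02 were the 2 above 0 in MH vs. MWT, and neither was called in any pair. The lists of oligodendrocytes, choroid plexus and red cells did not have the order of the summed ribosomal protein genes. The 10 microglia markers, all in the table and none at 0, summed to 650, 295, 339 and 502 RPM. Of them 8 were called higher in CxH vs. CxWT, 4 lower in MH vs. MWT, 8 higher in CxH vs. MH and 6 lower in CxWT vs. MWT, where 9.46%, 12.7%, 2.43% and 2.11% of all genes were called likewise. The 6 oligodendrocyte markers summed to 4762, 9056, 4947 and 7174 RPM, the 5 astrocyte markers to 2784, 1762, 2269 and 2325, the 5 endothelial markers to 143, 94.7, 100.6 and 109, and the 5 choroid plexus markers to 573, 133, 622 and 254. The 2 red cell markers in the table summed to 125, 254, 186 and 77.1 RPM. The part of these cells in the ribosomal protein ratios was not tested.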

How the data were processed

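Pooled polyA RNA of the 4 conditions was sequenced on a SOLiD 3 Plus instrument in a single run. The authors aligned reads to NCBI37/mm9 with PASS, allowing 2 mismatches and no gap and keeping the best hit, and deposited raw counts per gene. Their counts take only reads placed in 1 gene, for genes with more than 50% of their length covered. The gene annotation is not given in the sources used here.

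Entrez identifiers gave 12690 symbols of 12700 through RefSeq. GENCODE vM1 gave GC content, length and coding sequence for 12354 genes and 34 members. RPM used the aligned reads stated by the study; a count of 0 was set to 1 for ratios. The Poisson likelihood ratio test and both thresholds follow the study and ran on all genes. The trend in GC content and log2 length, quadratic in both, was fitted over 10784 other genes that reach 100 reads in each library. Copies were searched with BLAST 2.17.0. The depth puts 3 reads at 0.0779 (CxH) to 0.104 (MWT) RPM. Alternatives were column totals, TMM (edgeR 4.0.16) and DESeq2 1.42.0 size factors, a minimum of 100 reads in both libraries, a log2 threshold of 1, Benjamini-Hochberg adjustment, edgeR's exact test with an assumed coefficient of variation of 0.2, the GC and length correction, leaving out the copy-type Rpl36al and Rps27l, and 0.5 added reads. A correction on the coding sequence was added after seeing the data. Members and lists were chosen with earlier results of these data known. Trpt1, Psmc3ip and Ndufs5-ps, matched to lists in error, were taken out after values were seen. Named members are the 5 highest and 5 lowest ratios of each pair among those reaching 100 reads in 1 library of the pair, the 5 with most reads per kilobase, stalk genes, copy-type genes, those within 0.05 of the threshold and sets of 5 or fewer; Rpl22, Rps3, Rps20, Eef1a1 and Eif2ak2 were chosen after their values were seen. Values of 2 members are not reported singly here; they stay in all counts, sums and medians. The steps were tested on simulated data. Python 3.11.15 and R 4.3.3 were used.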

Additional observations from a re-analysis of the deposited data

Results flagged for a closer look

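The summed reads of the ribosomal protein genes had opposite directions in comparisons that share no library. Their log2 ratio was 0.30 in CxH vs. CxWT and -0.35 in MH vs. MWT, and 0.38 for CxH vs. MH but -0.26 for CxWT vs. MWT. Rps27l, called in both of the latter, had 1.15 and -1.62. With 1 library per condition the differences between comparisons were not tested, and in M the reads of Ids go against the labels. Both sets of comparisons rest on the same 4 libraries and restate 1 order of them.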

How the results depend on the processing

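No sample could be left out and no replicate compared, since each condition is 1 library. The labels give no replicate numbers to pair by. An additive fit of genotype and area over the 4 libraries, which would leave 1 residual degree of freedom, was not run. Benjamini-Hochberg adjustment kept all 12 counts of called members within 1.5 times. Percentages in parentheses are the share of all genes called in that direction under the same alternative. A log2 threshold of 1 left 1 member higher (5.44%) and 0 lower (5.59%) in CxH vs. CxWT, 2 lower (6.09%) in MH vs. MWT, 2 higher (0.858%) in CxH vs. MH, 0 higher (1.53%) and 1 lower (0.795%) in CxWT vs. MWT, and 2 higher (8.72%) and 2 lower (6.72%) in CxH vs. MWT. The GC and length correction gave 0 lower (7.997%) in CxH vs. CxWT, 3 lower (9.04%) in MH vs. MWT, 4 higher (1.38%) in CxH vs. MH, 1 lower (1.64%) in CxWT vs. MWT, and 2 higher (8.55%) and 1 lower (7.82%) in CxH vs. MWT. On the coding sequence it gave 7 higher (9.38%) and 1 lower (8.445%) in CxH vs. CxWT and 6 lower (9.87%) in MH vs. MWT. It also gave 6 higher (1.595%) in CxH vs. MH, 4 lower (2.22%) in CxWT vs. MWT and 2 lower (9.56%) in CxH vs. MWT. The exact test gave 2 higher (6.94%) and 0 lower (7.74%) in CxH vs. CxWT, 2 lower (1.01%) in CxWT vs. MWT and 2 lower (10.03%) in CxH vs. MWT. TMM factors gave 0 lower (8.94%) in CxH vs. CxWT and 2 lower (13.4%) in CxH vs. MWT, and DESeq2 size factors 0 lower (9.06%) and 2 lower (13.7%). Column totals gave 7 lower (3.07%) in CxWT vs. MWT, and moved the median of all genes in CxH vs. MWT from -0.04 to -0.14. With at least 100 reads in both libraries there were 0 higher (10.9%) in MH vs. MWT, 0 higher (4.52%) and 2 lower (1.22%) in CxWT vs. MWT and 0 lower (7.15%) in MH vs. CxWT, where leaving out the copy-type members also gave 0 (8.88%). The members' median kept its sign in the 4 comparisons of the study under every alternative run, and turned for CxH vs. MWT, from -0.0053 to between 0.0089 and 0.092, with TMM factors, DESeq2 size factors, either GC and length correction and without the copy-type members, and for MH vs. CxWT, from -0.14 to 0.0039 and 0.0037 with the corrections. No named member that was called changed direction. The cause of these changes was not tested, apart from the stricter threshold and the minimum of reads, which remove calls by construction.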
